A study of Mus musculus with 1 sample.

Results

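The genes examined here were 10 components of the Notch pathway in ventral midbrain (VM)-derived mixed glia. They were the receptors Notch1, Notch2, Notch3 and Notch4, the ligands Jag1 and Dll1, the nuclear factor Rbpj, and the target genes Hes1, Hes5 and Hey1. Members were chosen by gene symbol, and each symbol had 1 row among the 23282 rows of the expression table. The cells were primary mixed glia from the VM of ICR (CD-1) outbred mice at postnatal day 5, and the study compared glia given an inhibitor of the kinase SGK1 with controls. A total of 1 RNA-seq library labelled as control, which the study's text describes as given the vehicle DMSO, was used, and inhibitor-treated glia were not analysed here. With 1 library there was no spread between cultures to set beside a value, and no test between groups was made. How many pups or cultures the RNA came from is not given in the sources used here.

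Notch proteins are receptors in the cell membrane that are switched on by ligands of the Jagged and Delta-like families on a neighbouring cell. Binding lets the protease ADAM10, and then the gamma-secretase complex, cut the receptor and free its intracellular part. This fragment enters the nucleus and joins RBPJ and a Mastermind-like protein on DNA, where it turns on genes such as those of the Hes and Hey families. HES and HEY proteins are repressors that hold down proneural genes, and the pathway is known for keeping neural progenitors undifferentiated and for favouring astrocyte over neuron fate. SGK1 itself is known to lower the level of the NOTCH1 intracellular part through the ubiquitin ligase subunit FBXW7.

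The deposited values were whole numbers per gene, which the authors call normalised read counts, and their sum was 27569507. Whether they had been scaled was not settled by the table. The number of reads behind that sum is unknown, so no counting interval is given. Genes at 10 or above are called detected here, and they made up 67.2% of all rows. Each count of detected genes below, for markers and for pathway roles, is to be set beside that share. The labelled cell types were checked with marker lists. All 12 astrocyte markers (484 to 17222) and all 12 microglial markers (290 to 53801) were detected. Of 10 endothelial markers 6 were detected, with Flt1 highest at 2427, Kdr next at 119, and Tek and Sox17 listed at 0. All 6 ependymal and all 8 oligodendrocyte lineage markers and 8 of 10 neuronal markers were detected. Mural cell markers were split, with 7 of 10 detected, Acta2 at 26499 and Tagln at 11771 but Rgs5 at 9, Kcnj8 at 5 and Higd1b at 0. Detection of some markers on a list does not show that its cell type was present. The library pools RNA from every cell of the culture, so the source of a Notch transcript was not resolved. Fewer cells of a type cannot be told apart from less RNA per cell.

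Of the 10 Notch members, 9 were detected, beside the 67.2% of all rows, and Hes5 was not. Together they had a summed value of 7995, or 290 per 1000000 of the library. Their median value was 370, against 469 for detected genes. Values were also divided by the length of all annotated exons of a gene and scaled so that the matched rows add up to 1000000. This quantity, called the length-scaled level, allows genes of different length to be set side by side. The median level of the members was 9.1, near the 9.67 of detected genes.

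The members were divided at a value of 100, so the groups cannot overlap in value. The 6 with a value of 100 or more, namely Rbpj, Notch2, Notch1, Jag1, Hey1 and Hes1, ran from 336 to 3473 and held 98.1% of the members' summed value. The remaining 4, namely Notch3, Notch4, Dll1 and Hes5, ran from 5 to 81. In length-scaled level the first 6 lay between 7.11 and 25.7, and 5 of them exceeded the median of detected genes. The other 4 lay between 0.346 and 0.945, all under 2.71, the lower quartile of detected genes.

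**Figure D1:**
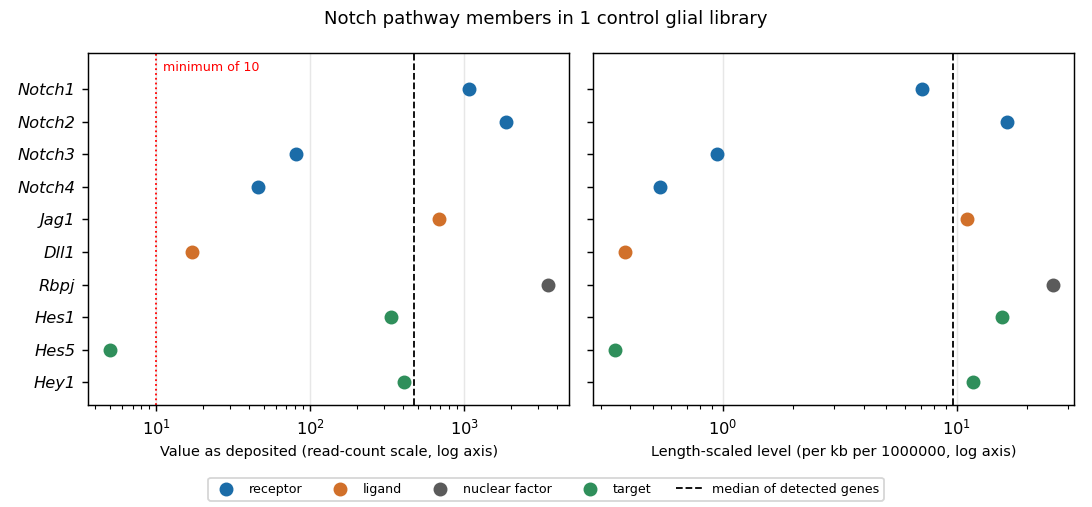
The left panel plots each member's value as deposited and the right panel its length-scaled level (per kb per 1000000), both on log axes, with 1 point per gene coloured by role and a dashed line at the median of detected genes. Notch3, Notch4, Dll1 and Hes5 are the lowest in both panels, and only Hes5 (5) lies under the minimum of 10.

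Notch2 was the highest receptor. Its value was 1877, or 68.1 per 1000000, above 81.8% of detected genes. Notch2 lies on chromosome 3 (98013527 to 98150361, plus strand, GRCm38), and the annotated feature Gm42820 on the same strand covers 5.02% of its exons. Notch1, on chromosome 2 (26457903 to 26516663, minus strand), had a value of 1072, or 38.9 per 1000000, above 69.7% of detected genes. Non-coding transcripts on the opposite strand, 0610009E02Rik and Gm13568, cover 7.5% and 2.91% of Notch1 exons. In length-scaled level Notch2 was at 16.4 and Notch1 at 7.11, a ratio of 2.31. The order of these receptors depended on the length used. The ratio was 1.58 with the longest transcript and 1.79 with the coding length, but 0.834 with the mean length of protein-coding transcripts, which put Notch1 ahead.

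Notch3 and Notch4 were far lower. Notch3 is known from vascular mural cells, where it supports smooth muscle identity, and Notch4 from endothelium. Notch3 (chromosome 17, 32120820 to 32166852, minus strand) had a value of 81 and a level of 0.945. Notch4 (chromosome 17, 34564268 to 34588503, plus strand) had a value of 46 and a level of 0.539. Notch1 exceeded Notch3 by 7.52 to 12.1 times across the 4 lengths tried, so this gap did not rest on the choice of length. Notch3 and Notch4 made up 3.78% and 2.15% of the summed level of the receptors. Of the 10 mural markers, 4 were above the median level of detected genes, namely Acta2, Tagln, Cspg4 (2634, level 20.8) and Pdgfrb (1150, level 19.8), and the other 6 were at 284 or below. Of the 10 endothelial markers, 1 was above that median, namely Flt1 (2427, level 17), and the other 9 were at 119 or below. The summed level was 1743 for the mural and 21.4 for the endothelial list. Most of the mural sum came from Acta2 (level 1139) and Tagln (level 559), and an antisense transcript covers 62.4% of Tagln exons. Rgs5, Kcnj8, Abcc9, Des and Higd1b had levels of 0.282 or below. Whether mural or endothelial cells were present, and their part in the receptor values, was not tested.

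**Figure D2:**
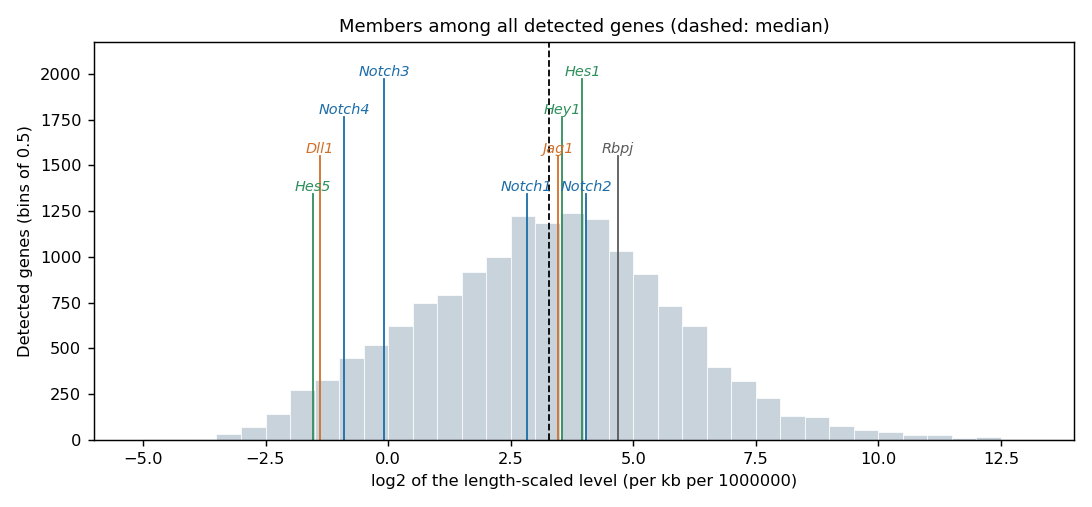
The bars count detected genes by the log2 of their length-scaled level in bins of 0.5, and the coloured lines mark the 10 members. Jag1, Hey1, Hes1, Notch2 and Rbpj stand to the right of the dashed median, Notch1 just to its left, and Notch3, Notch4, Dll1 and Hes5 in the lower tail.

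Among the 4 canonical ligands, Jag1 was the only one above the median level of detected genes. Jag1 encodes JAGGED1, a membrane ligand that astrocytes and progenitors can present. The gene lies on chromosome 2 (137081456 to 137116644, minus strand), free of exon overlaps with other genes. It had a value of 684, or 24.8 per 1000000, and a level of 11.1, above 53.1% of detected genes. Dll1, a Delta-like ligand typical of newly forming neurons, had a value of 17 (chromosome 17, 15367354 to 15376872, minus strand). A long non-coding RNA on the opposite strand covers 20.5% of Dll1 exons. The level of Jag1 was 15.4 to 29.1 times that of Dll1 across the 4 lengths.

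The other ligands with the same activating role were also low. Jag2 had a value of 70 and a level of 0.949. Dll4, the endothelial ligand, had a value of 4 and was under the minimum. Jag1 held 88.6% of the summed level of the 4 canonical ligands, and 78.7% with the mean length of protein-coding transcripts. Ligand-like proteins outside that group were partly present. Dner, a transmembrane protein with epidermal growth factor repeats that is best known from neurons, had a value of 739 and a level of 14.6, which was 1.32 to 3.8 times that of Jag1 across the 4 lengths. Dlk1 was at 309 and Dlk2 at 85. Dll3, which inhibits the receptor from within the cell, was at 1.

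Rbpj was the highest member. It encodes the DNA-binding protein on which every Notch receptor converges. Its value was 3473, or 126 per 1000000, above 90.8% of detected genes, and its level was 25.7. The gene lies on chromosome 5 (53466152 to 53657362, plus strand), free of exon overlaps with other genes. Rbpj has processed pseudogenes in the mouse genome, and how reads shared with them were counted is not stated. It kept the first place among the members with each of the 4 lengths. Its lead over Notch2 varied from 1.56 to 8.7 times, because the annotated exons of Rbpj add up to 12750 bases while the longest coding sequence has 1578.

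The partners of RBPJ were examined next. Of 7 genes of the nuclear complex, 6 were detected, and the exception was Rbpjl at 1, a paralog of Rbpj that is best known from pancreas. Snw1, which encodes a bridging cofactor, had a value of 3170 and a level of 45.4, but 44.2% of its exons lie over Slirp on the opposite strand. Maml2 was the highest Mastermind-like coactivator, at a value of 1047 and a level of 15. All 10 genes of corepressors that RBPJ or HES proteins can recruit were detected. Among these the histone deacetylase gene Hdac1 had a level of 119 and Cir1 a level of 38, and the lowest was the Groucho family gene Tle2 at 2.75.

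Target genes spread widely. Hes1 had a value of 336, or 12.2 per 1000000 (chromosome 16, 30064384 to 30067796, plus strand). Hey1 had a value of 404, or 14.7 per 1000000 (chromosome 3, 8663359 to 8667256, minus strand). Both are textbook transcriptional repressors induced by Notch, and exons of neither overlap another annotated gene. In length-scaled level Hes1 was at 15.6 and Hey1 at 11.7, and the order was reversed with the coding length. Hes1 moved from above 43.1% of detected genes by value to above 60.9% by level, since its exons add up to only 2037 bases.

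Hes5, the other classical target in neural progenitors, had a value of 5 and was not detected (chromosome 4, 154960923 to 154962371, plus strand). A transcript on the opposite strand, Gm20421, covers 31.8% of Hes5 exons. The level of Hes1 was 39.8 to 58.3 times that of Hes5 across the 4 lengths. Genes listed as markers of neural progenitors, the cells Hes5 is best known from, were detected in 6 of 6 cases, beside 67.2% of all rows. Of the 6, 3 were above the median level of detected genes. Nes had a value of 9126, Fabp7 3322 and Sox2 1268, while Prom1 was at 507, Pax6 at 353 and Sox1 at 301. These values do not show that neural progenitors were present, which was not tested. With so low a value of Hes5, the ratios of Hes1 to Hes5 are imprecise, and their error cannot be stated at an unknown depth. Among the other 5 genes of the target list, Hes6 was highest at a value of 463 and a level of 24.2. Hes6 encodes a relative that opposes HES1, and it was listed as a Hes family gene. Whether Notch induces Hes6 in these cells was not tested. Hey2 had a value of 91, Heyl 43, Nrarp 28 and Hes7 6. For Nrarp, a feedback inhibitor of the receptor, 79.4% of exons lie over an antisense transcript. Of the 8 genes in this list, 6 were detected, beside 67.2% of all rows. The 3 above the median level of detected genes were Hes6, Hes1 and Hey1.

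Promoter windows from RefSeq (GRCm38.p6) were searched for the sequence that RBPJ binds. Each window held 250 bases before and 50 after a gene start, and the motif was GTGGGAA on either strand. The table held windows for 8 of the 10 members, without Hes1 and Hey1. Among the 8, only Hes5 held the motif. The shorter core TGGGAA, which GTGGGAA contains, also occurred in both windows of Rbpj. Of the 5 target genes with a window, Hes5, Hey2 and Hes7 held GTGGGAA. Among all 32851 windows, 6.38% held the motif and 0.256% held it at 2 or more places. Hes5 and Hey2 had 2 places each, and these windows are shown because no other target window held the motif more than 1 time. Their genes had values of 5 and 91. They are printed 5′ to 3′ on the strand of the gene, from base -250 to base 10, with no base 0, and capitals mark the motif or its reverse complement. The Hes5 window is chr4:154960673-154960932 (plus strand) and the Hey2 window is chr10:30842774-30843033 (minus strand).
Hes5: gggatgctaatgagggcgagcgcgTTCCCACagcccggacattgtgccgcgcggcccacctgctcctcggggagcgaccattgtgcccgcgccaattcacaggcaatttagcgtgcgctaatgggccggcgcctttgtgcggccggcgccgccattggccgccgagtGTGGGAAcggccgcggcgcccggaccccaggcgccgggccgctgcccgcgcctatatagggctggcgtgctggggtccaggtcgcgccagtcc
Hey2: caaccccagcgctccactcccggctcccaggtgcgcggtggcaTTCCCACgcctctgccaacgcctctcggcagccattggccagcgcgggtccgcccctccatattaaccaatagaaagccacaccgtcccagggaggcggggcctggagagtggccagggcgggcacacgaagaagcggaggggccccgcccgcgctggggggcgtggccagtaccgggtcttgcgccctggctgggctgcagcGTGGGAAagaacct
In Hes5 the motif lay at bases -226 to -220 on the opposite strand and at -83 to -77 on the gene strand. In Hey2 it lay at -207 to -201 on the opposite strand and across the start, from -4 to 3, on the gene strand. A match of letters is a description and shows no binding in these cells.

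**Figure D3:**
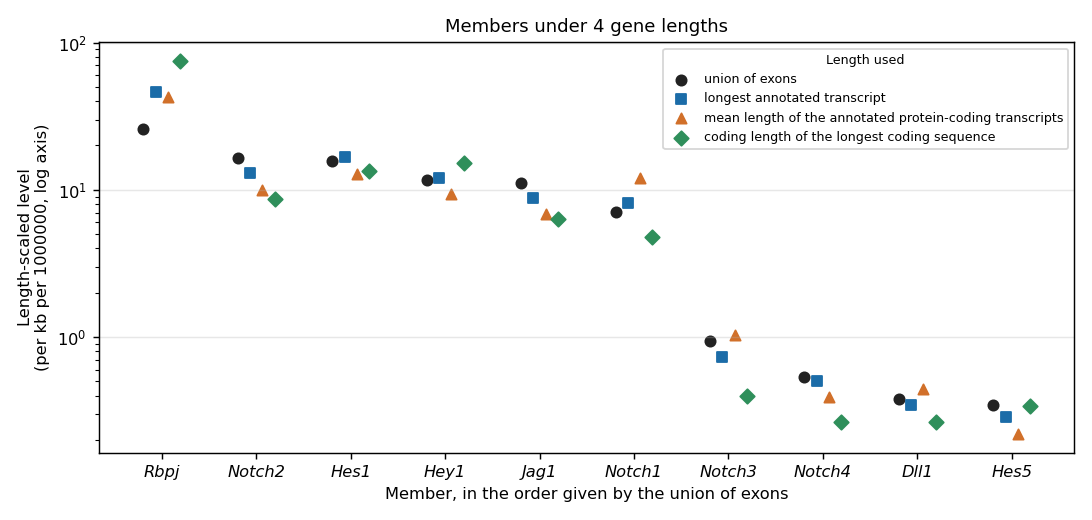
The length-scaled level (per kb per 1000000, log axis) of each member is plotted with 4 choices of gene length, and genes are in the order given by the union of exons. Rbpj is first with each length, the 6 higher members stay at 4.81 or above, and the 4 lower ones stay at 1.04 or below.

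Genes of the proteases that cut the receptor had a median length-scaled level of 44.2, against 4.03 for the receptors. All 10 protease genes were detected, and 8 were above the median level of detected genes. Psenen, the smallest gamma-secretase subunit, had a value of 2076 and a level of 154. Adam10, which makes the ligand-dependent cut, had a value of 4875 and a level of 93.7, and Ncstn, the substrate-binding subunit nicastrin, a value of 2829 and a level of 67.2. Adam10 exceeded Notch2 by 5.7 to 10.5 times across the 4 lengths. These proteases also cut many other membrane proteins. The lowest was Aph1b at a value of 123 and a level of 2.25, and reads of Aph1b can be shared with its close paralog Aph1c at 219.

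Genes that add sugars to the receptor were detected in 5 of 5 cases. The Fringe enzymes bias receptors between Delta-like and Jagged ligands. Among them Lfng had a value of 1105 and a level of 41.6, Rfng a value of 576 and a level of 21.8, and Mfng a value of 263 and a level of 8.74. Lfng exceeded Mfng by 3.4 to 4.76 times across the 4 lengths. Pofut1, which adds the O-fucose that Fringe enzymes extend, was at 498, and Poglut1, an O-glucosyltransferase, at 431. The ubiquitin ligases that activate ligands by endocytosis were all detected, with Mib2 at 1140, Mib1 at 670, Neurl1b at 202 and Neurl1a at 99.

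All 8 genes of receptor turnover were detected. In length-scaled level the Deltex genes Dtx3 and Dtx4 were highest at 38.2 and 37.2, followed by Numb, an inhibitor of the receptor, at 16.7, and Dtx1 was lowest at 4.17. Fbxw7, named for the link between SGK1 and NOTCH1, had a value of 571 and a level of 7.65. The proneural genes, which HES proteins repress, were near the bottom of the table. Of 5 such genes 2 were detected. Neurog1 and Neurog2 were listed at 0, Atoh1 was at 8 and Neurod1 at 21. Exons of Neurod1 overlap Cerkl on the same strand.

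Over all 11 roles, 61 of 69 pathway genes were detected, against 67.2% of all rows. Besides the members, this was 52 of 59, and the 7 that were not were Dll3, Dll4, Rbpjl, Hes7, Neurog1, Neurog2 and Atoh1. The median level of these 59 genes was 8.73, and 26 of them exceeded the median of detected genes. The highest list medians were those of the receptor proteases at 44.2 and the corepressors at 20.5. The medians of the receptors, canonical ligands and target genes were 4.03, 0.665 and 1.45.

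**Figure D4:**
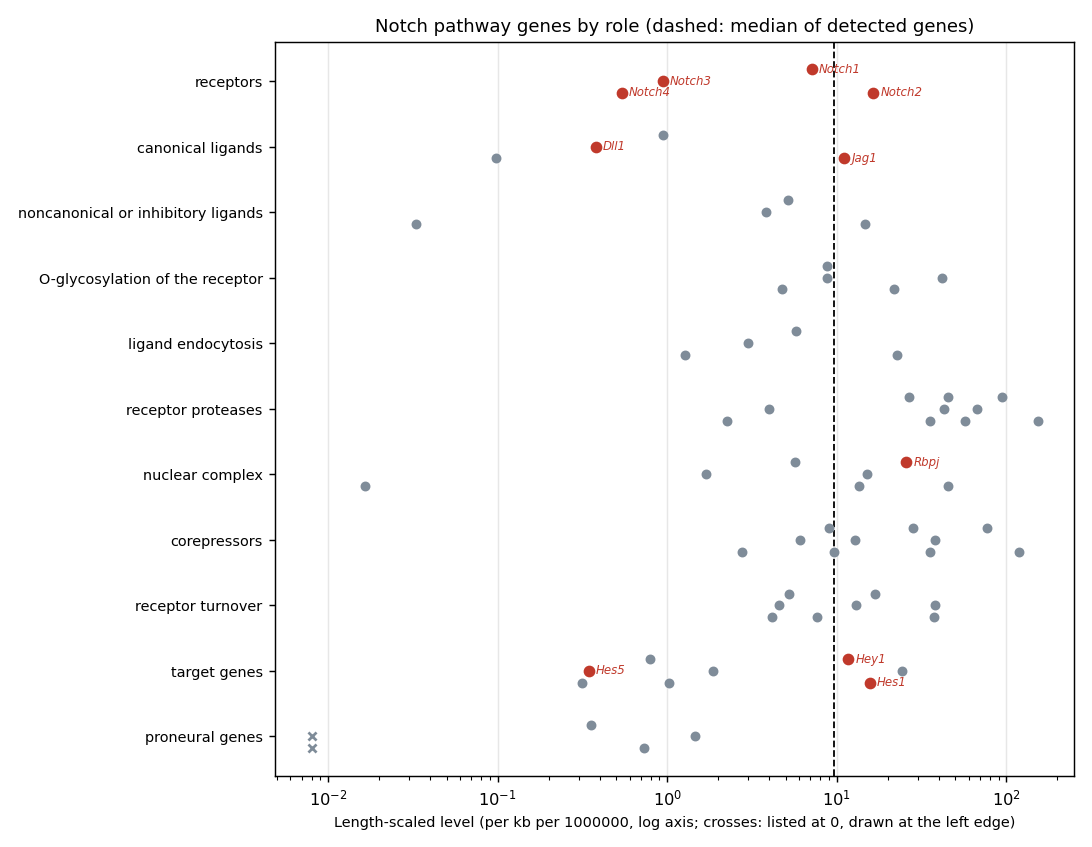
Each point is 1 gene of the Notch pathway, placed by its length-scaled level (per kb per 1000000, log axis) in the row of its role, with members named in red. Proteases and corepressors lie mostly to the right of the dashed median of detected genes, while the receptors, ligands and targets each hold a few genes at middle level and others far to the left.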

How the data were processed

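The deposited values were 1 whole number per gene symbol for 1 control library. The authors describe them as normalised read counts, and they were treated as a score and not as unprocessed counts. Per the study's methods, reads were trimmed at a base quality of 20, mapped to GRCm38/mm10 with STAR and counted on exons of RefSeq Release 105 genes with HTSeq-count. The submitters' processing notes instead name TopHat and edgeR. The normalisation, strand setting, treatment of multi-mapped reads and versions are not given in the sources used here.

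Values were expressed per 1000000 of their sum and, after division by exon length, per 1000000 over the 22911 rows (98.4%) matched to GENCODE M21 (GRCm38), which is not the annotation that was counted on. Genes named were the members and, from each pathway list, all genes where it had at most 5, and otherwise the 3 highest, the lowest in level and those at 0. A few genes that meet this rule were left out of the text. Fbxw7, the further target genes, the marker genes and Aph1c were named outside that rule with their values known. The members and lists were chosen with earlier results of these data known. The calculations were checked on simulated data. Scripts ran in Python 3.11.15 with pandas 2.3.3, numpy 2.4.6, scipy 1.17.1 and matplotlib 3.10.9. Alternatives changed the minimum, the gene length, the pseudocount and the sum. A level per 1000000 was taken as moved when it left the 95% exact binomial interval that its value would have as a read count.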

Additional observations from a re-analysis of the deposited data

How the results depend on the processing

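Each count of detected members or pathway genes stayed within 1.5 times under the minima tried, with 10 members at a minimum of 1 or 3 and 6 at 100, and 67 pathway genes at 1 and 50 at 100. The order of members by length-scaled level was less firm: 8 of 10 kept their place with the longest transcript, 6 with the coding length and 3 with the mean length of protein-coding transcripts. The median of log2(level + 1) over the members was 3.31. It was 3.17 with a pseudocount of 0.1, 3.59 for members at 10 or more and 3.25 with the longest transcript, beside 3.42 for all detected genes. Members above the median of detected genes numbered 4 by value, 5 by level, 6 against all rows and 3 against genes at 100 or more. Leaving the 10 highest genes out of the sum raised each level per 1000000 by a factor of 1.15, and leaving out the ribosomal RNA precursor Rn45s by 1.02. No paired analysis was possible because there was 1 library. That library, its unknown depth and the unstated normalisation limit each value.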

Other observations

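Among low values, even numbers tended to occur in more rows than the odd numbers next to them. Even values still made up only 49.2% of the 3560 rows valued 1 to 20. A value of 2 occurred in 444 rows and 3 in 318, and a value of 4 in 326 rows and 5 in 209. At 10 the difference was slight, with 129 rows beside 130 at 9 and 126 at 11. For each of the 10 even values from 2 to 20, the number of rows exceeded the mean of its odd neighbours, while this held for 1 of the 9 odd values from 3 to 19. Among the members, Hes5 and Dll1 had values in that range. The pattern bears on whether the values are scaled or unscaled reads, which the sources used here do not settle. It was noticed after the table was read, and its cause was not tested.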
